A study of Mus musculus with 10 samples.

Results

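The primitive endoderm regulator genes described here are 7 named genes of the mouse, namely the transcription factors Gata6, Gata4, Sox17, Sox7 and Hnf4a, the growth factor receptor Pdgfra and the endocytic adaptor Dab2. They were chosen by name, for their known place in this lineage, with earlier results of these data known. They make up 7 of the 21938 protein-coding genes that GENCODE M21 places on chromosomes 1 to 19, X and Y of mm10. For each gene the H3K4me3 peaks and the open chromatin (ATAC-seq) peaks were described within 5 kb of its start, in the gene body and up to 50 kb on either side. The gene start is the first base of the gene in its own direction of transcription, and a gene with an H3K4me3 peak that shares at least 1 bp with the 5 kb window is called marked.

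The study measured chromatin contacts anchored at H3K4me3 or at sites of the protein CTCF in F123 cells. These are a mouse embryonic stem cell line derived from an F1 embryo of a castaneus by S129/SvJae cross. H3K4me3 ChIP-seq and ATAC-seq data were made from the same cells. All cells carried the same genotype and had no treatment. They were grown with 15% knockout serum replacement and 1000 U/ml of LIF on irradiated CF1 mouse embryonic fibroblasts, and were passaged once onto gelatin without feeders before collection. ChIP-seq used 2000000 fixed cells per sample and ATAC-seq used 100000 fresh cells. Each assay had 2 biological replicates, and each peak list stands for both of them, so no spread between replicates can be given, no difference was tested, and every value below is a single value per gene or peak. The lists hold no read counts, so the depth of the libraries is unknown. F123 is 1 line, the reads of its 2 parental genomes were not separated, and a peak in a population list cannot tell a mark on all cells from a mark on some of them.

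Primitive endoderm is the extraembryonic lineage that separates from the epiblast in the inner cell mass of the blastocyst and later forms the yolk sac endoderm. FGF signalling through ERK favours it, Gata6 and the epiblast factor Nanog oppose each other, and Sox17, Gata4 and Sox7 act after Gata6, while embryonic stem cells maintain the epiblast programme. H3K4me3, trimethylated lysine 4 of histone H3, marks promoters, above all those rich in CpG dinucleotides, and in embryonic stem cells it is also known at developmental promoters that are silent and carry Polycomb marks. Neither Polycomb marks nor RNA were measured in the lists used here.

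Of the 7 genes, 5 were marked, Gata6, Sox17, Pdgfra, Sox7 and Gata4, against 69.3% of all protein-coding genes, so that the share of marked genes lay near the background. The summed width of the H3K4me3 peaks in the window was 8982 bp at Gata6, 8899 bp at Pdgfra, 7152 bp at Sox17, 3460 bp at Sox7 and 2578 bp at Gata4, with a median of 7152 bp, against a median of 2388 bp over the 15201 marked protein-coding genes. All 5 were wider than that median, which 50% of marked genes exceed, and 3 (Gata6, Pdgfra and Sox17) were in the widest 10%, which begins above 4650 bp and holds 10% of marked genes by its definition. The same 3 had at least 1 H3K4me3 peak of 4 kb or more in the window (Pdgfra had 2), as did 7.96% of marked genes. The highest fold enrichment of a peak in the window ran in another order, from 28.1 at Sox7 through 25.9 at Pdgfra, 21.0 at Sox17 and 17.6 at Gata6 to 6.90 at Gata4, and none of the 5 reached the median of 30.7 (exceeded at 50% of marked genes). The combination of a width above the median with an enrichment below it was found at all 5 marked members and at 17.3% of marked genes. Among genes of the widest 10%, 38.5% had an enrichment below that median.

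**Figure D1:**
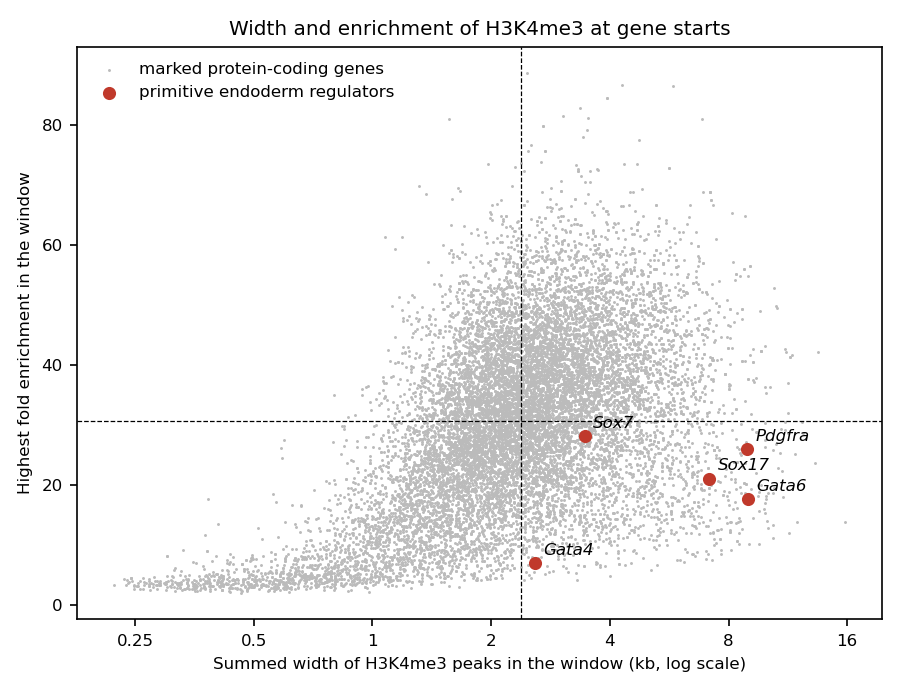
Each grey point is one of the 15201 marked protein-coding genes, placed by the summed width of its H3K4me3 peaks within 5 kb of the start (kb, log scale) and the highest fold enrichment among them. The dashed lines are the medians (2388 bp and 30.7), and the 5 marked regulators (red) all lie to the right of one and below the other.

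The marks were also broken up in some of the genes. At Sox17, Pdgfra and Sox7 the window held 2 separate H3K4me3 peaks, and at Gata6 and Gata4 it held 1. That makes 3 of 7 genes with 2 or more peaks, against 18.4% of all protein-coding genes and 26.6% of the marked ones. No member had 3 or more, a number reached by 4.57% of protein-coding genes. The breaks were short, at 711 bp in Sox17, 291 bp in Pdgfra and 283 bp in Sox7, and joining peaks less than 1 kb apart left no member and 10.2% of protein-coding genes with more than 1. The median gap within the windows of all protein-coding genes was 791 bp. None of the 3 member gaps held an ATAC-seq peak or the gene start. Of the 5381 gaps in all windows, 42.3% held an ATAC-seq peak (95% Wilson interval 41.0 to 43.6, counting error only) and 6.97% held the gene start. A gap that lay in the windows of several genes was counted for each of them, so the interval is only approximate. All 3 member gaps were shorter than the median gap, and the share among gaps of like length was not computed.

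Open chromatin was listed within 5 kb of 6 of the 7 starts, against 81.3% of all protein-coding genes. All 5 marked members had such a peak, as had 99.7% of marked genes. Pdgfra had 5 ATAC-seq peaks in the window, Gata6, Sox17, Sox7 and Gata4 had 3 each, Hnf4a had 2 and Dab2 had none, and the median over all protein-coding genes was 1. The gene start itself was covered by an ATAC-seq peak at 3 of the 5 marked members, Gata6, Sox17 and Sox7, and at 86.1% of marked protein-coding genes.

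The annotated starts of several members lie far apart, and the mark was not always at the first of them. Starts no more than 1 kb apart were joined into start regions, of which the 7 genes have 20. An H3K4me3 peak lay within 1 kb of 11 of these (39.6% over all protein-coding genes) and an ATAC-seq peak within 1 kb of 10 (49%). At Gata4 and Dab2 the first start region had no H3K4me3 peak within 1 kb and a later one did, a pattern shown by 6.1% of the 12355 protein-coding genes with several start regions. Hnf4a had no H3K4me3 peak within 1 kb of any of its 3. With a window of 5 kb around every annotated start, 6 members had an H3K4me3 peak (71.7% of protein-coding genes), 5 had 2 or more (27.5%) and all 7 had an ATAC-seq peak (83.4%).

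**Figure D2:**
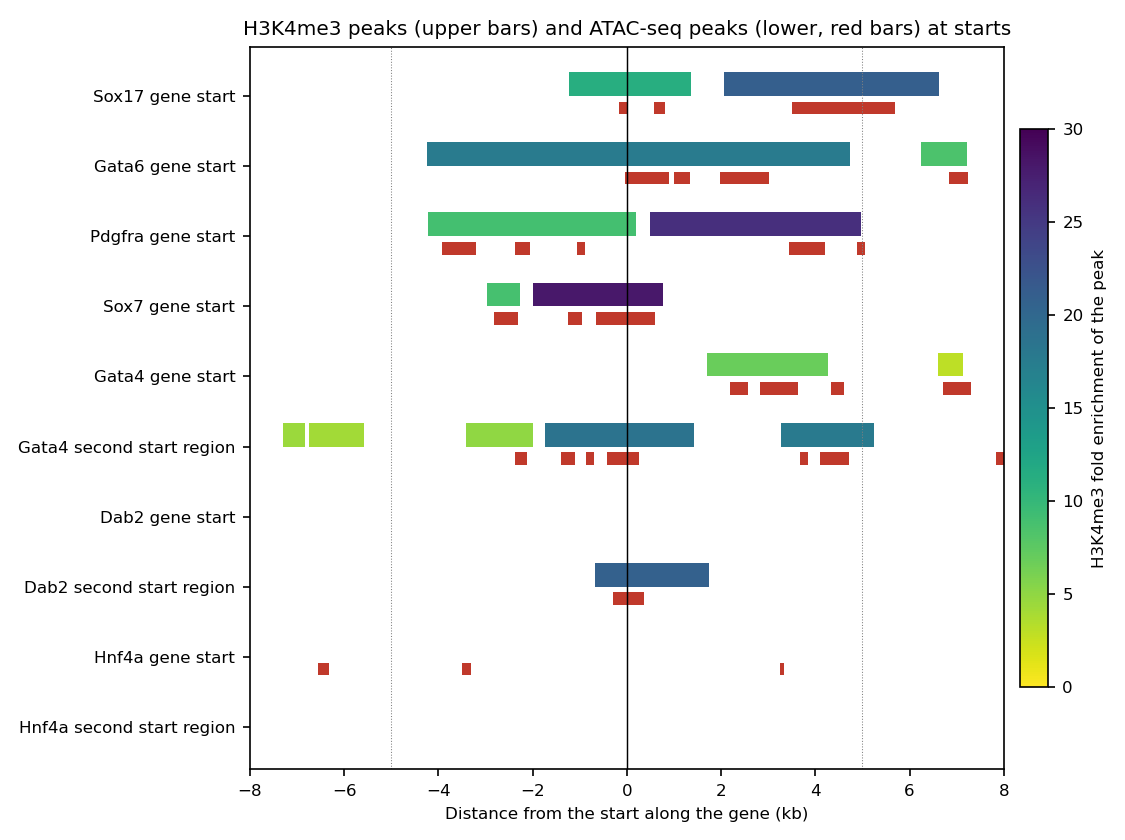
H3K4me3 peaks (upper bars, coloured by fold enrichment) and ATAC-seq peaks (lower, red bars) are drawn against the distance from a start in kb, in the direction of transcription, for the 7 gene starts and the second start regions of Gata4, Dab2 and Hnf4a. Dotted lines mark 5 kb on either side, and the single 8982 bp block at Gata6 contrasts with the paired peaks at Sox17, Pdgfra and Sox7 and with the empty first starts of Dab2 and Hnf4a (H3K4me3).

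The 200 reference bases just before a start show how these starts differ in CpG content. They are shown for the start of Sox7, the most enriched member, for the marked second start of Gata4, for a marked and an unmarked start of Dab2, and for a pair of unmarked starts of Hnf4a. The sequences were read from the RefSeq GRCm38.p6 assembly (mm10 coordinates), run 5′ to 3′ in the direction of the gene up to the base before the start, and have every CpG in capitals. They are the reference bases and not those of the castaneus or S129/SvJae alleles of the cells.
Sox7 before its only start (chr14:63943473-63943672, plus strand, promoter): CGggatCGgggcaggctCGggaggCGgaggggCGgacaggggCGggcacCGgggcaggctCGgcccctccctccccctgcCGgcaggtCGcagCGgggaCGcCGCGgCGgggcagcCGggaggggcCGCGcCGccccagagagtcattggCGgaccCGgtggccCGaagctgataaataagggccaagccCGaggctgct
Gata4 before its second start region (chr14:63245272-63245471, minus strand, intron of the longer transcripts): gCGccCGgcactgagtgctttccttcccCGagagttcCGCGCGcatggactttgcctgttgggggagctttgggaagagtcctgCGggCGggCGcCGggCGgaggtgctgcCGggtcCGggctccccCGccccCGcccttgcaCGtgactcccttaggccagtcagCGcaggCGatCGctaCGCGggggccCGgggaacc
Dab2 before its second start region (chr15:6386398-6386597, plus strand, intron of the longer transcripts): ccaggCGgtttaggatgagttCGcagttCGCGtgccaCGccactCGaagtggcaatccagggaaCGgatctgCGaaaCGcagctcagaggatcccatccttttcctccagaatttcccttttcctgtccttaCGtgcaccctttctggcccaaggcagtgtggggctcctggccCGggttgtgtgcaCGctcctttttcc
Dab2 before its first start (chr15:6299588-6299787, plus strand): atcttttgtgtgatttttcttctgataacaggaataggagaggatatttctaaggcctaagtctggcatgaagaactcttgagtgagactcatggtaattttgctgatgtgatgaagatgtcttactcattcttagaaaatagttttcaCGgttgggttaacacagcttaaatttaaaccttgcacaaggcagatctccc
Hnf4a before its first start (chr2:163506608-163506807, plus strand): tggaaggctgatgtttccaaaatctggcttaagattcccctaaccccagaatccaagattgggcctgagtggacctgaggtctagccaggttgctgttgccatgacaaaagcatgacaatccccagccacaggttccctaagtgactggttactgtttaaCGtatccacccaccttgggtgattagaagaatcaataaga
Hnf4a before its second start region (chr2:163546617-163546816, plus strand, intron of the longer transcript): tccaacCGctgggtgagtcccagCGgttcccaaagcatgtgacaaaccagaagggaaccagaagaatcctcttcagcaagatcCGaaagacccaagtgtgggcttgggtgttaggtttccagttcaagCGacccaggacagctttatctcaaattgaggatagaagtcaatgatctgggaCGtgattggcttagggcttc
The 3 stretches that lay under peaks of both assays held 23 (Sox7), 22 (Gata4) and 12 (Dab2) CpG dinucleotides. The 3 that lay under neither held 1 at the first start of Dab2, 1 at the first start of Hnf4a and 5 at its second. The contrast between the 2 starts of Dab2 is within 1 gene.

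Over 2 kb centred on each start region the same difference was seen. The ratio of observed to expected CpG had a median of 0.607 (range 0.195 to 0.771) at the 11 member start regions with H3K4me3 within 1 kb and of 0.199 (0.137 to 0.307) at the 9 without. The lowest marked value, 0.195, belonged to the third start region of Dab2, which lies 704 bp beyond the end of the peak over the second, and the other 10 marked start regions, from 0.460 upward, did not overlap the unmarked ones. The member start regions are not independent, since the first and second of Gata6 lie under the same peak. Over all protein-coding genes the medians were 0.564 at 19241 start regions with the mark and 0.201 at 29366 without it, so that the members followed the general pattern. The ranges over all genes overlapped widely, from 0.0368 to 1.19 with the mark and from 0 to 0.960 without it.

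**Figure D3:**
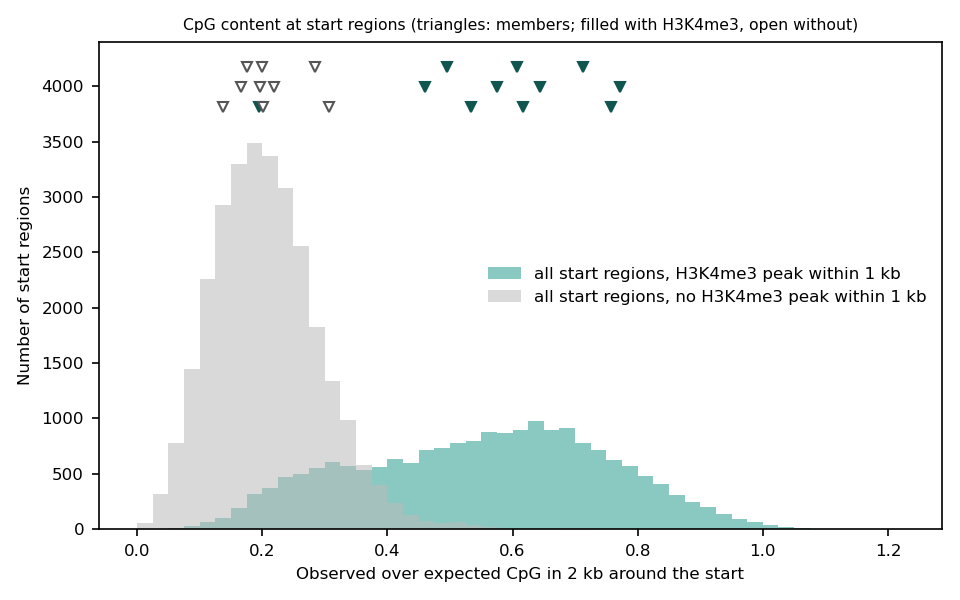
The histograms give the number of start regions of all protein-coding genes by the ratio of observed to expected CpG in 2 kb around the start, with (green) and without (grey) an H3K4me3 peak within 1 kb. Triangles above them are the 20 member start regions at arbitrary heights, and all but 1 of the 11 filled ones (with H3K4me3) lie to the right of the 9 open ones.

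Gata6, the zinc finger factor at the head of the lineage (chr18:11052064-11085635, plus strand), had the widest single H3K4me3 peak of the group. It ran without a break for 8982 bp, from -4250 to 4731 bp around the start (chr18:11047814-11056795), and 99.5% of marked genes had a smaller summed width. Its enrichment of 17.6 was above that of 10.2% of the 88 peaks within 25% of its width, which had a median of 34.3. ATAC-seq peaks of 929, 336 and 1036 bp lay inside it, over the start or downstream of it. A separate H3K4me3 peak of 968 bp with an enrichment of 8.45 covered the third start region, 6983 bp downstream, together with an ATAC-seq peak of 400 bp. No other H3K4me3 peak was listed in the gene or in 50 kb around. The wide peak also covers the start of the noncoding gene 1010001N08Rik, and the lists cannot tell which of the genes a mark belongs to.

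Sox17, an HMG box factor of endoderm (chr1:4490931-4497354, minus strand), is a short gene of 6424 bp, and a gap of 711 bp was its only stretch outside an H3K4me3 peak. A peak of 2586 bp with an enrichment of 11.2 covered the first start region, from -1231 to 1354 bp around the gene start. The stronger peak, of 4566 bp with an enrichment of 21.0, followed after this gap, covered the second start region 3619 bp downstream and ended beyond the end of the gene, 6631 bp from the start. Inside it lay an ATAC-seq peak of 2173 bp, wider than 99.96% of the ATAC-seq list. The ATAC-seq peaks at the first start region were narrow in comparison, with 179 and 245 bp. The gene start peak also covers a start of the gene Gm37587.

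Sox7 (chr14:63943673-63950732, plus strand), the closest relative of Sox17 among the members, has 1 annotated start. Its main peak of 2756 bp reached from -1983 to 772 bp around the start with an enrichment of 28.1, above that of 37.3% of peaks of similar width. A peak of 704 bp with an enrichment of 8.88, above that of 87.6% of peaks of similar width, stood 283 bp further upstream. Each of the 3 ATAC-seq peaks in the window, of 1242 bp over the start and of 293 and 515 bp upstream, lay in or touched an H3K4me3 peak. Beyond the window 3 ATAC-seq peaks and no H3K4me3 peak were found up to 50 kb around. Sox7 and Gata4 lie on the same chromosome, with gene starts 671981 bp apart, so their 50 kb regions do not meet.

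Gata4, the second GATA factor of the lineage (chr14:63198922-63271692, minus strand), had the most scattered pattern. The first start region had no peak within 1 kb, and the nearest H3K4me3 peak, of 2578 bp with an enrichment of 6.90, began 1695 bp downstream of the gene start, in an intron. Its enrichment was above that of only 2.33% of peaks of similar width, whose median was 31.7. The second start region, 26421 bp downstream, was covered by a peak of 3175 bp with an enrichment of 18.6 and by an ATAC-seq peak of 695 bp. A peak of 1988 bp, enrichment 17.8, lay over coding exon sequence 3244 bp beyond the nearest start, and a peak of 1428 bp, enrichment 4.99, lay on the upstream side. The third start region, 58085 bp downstream, had neither H3K4me3 nor open chromatin within 1 kb. In all, the gene body held 8 H3K4me3 peaks, between 1695 and 31675 bp from the start, with enrichments from 3.00 to 18.6. A gene body with 8 or more is found at 0.725% of protein-coding genes, and at 3.69% of the 3493 whose body is at least as long as that of Gata4. Both cuts are the values of Gata4 itself, so these shares only give its rank. When all annotated starts were given a window of 5 kb, the summed width at Gata4 was 9169 bp instead of 2578 bp. The 4 further H3K4me3 peaks within 50 kb lay near the starts of the neighbours Neil2 and Fdft1.

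Pdgfra, the platelet-derived growth factor receptor alpha that is used as a surface marker of primitive endoderm (chr5:75152292-75198215, plus strand), had wide peaks on both sides of its start. The upstream peak of 4420 bp ran from -4223 to 196 bp around the start with an enrichment of 8.99, and the downstream peak of 4479 bp ran from 488 to 4966 bp with an enrichment of 25.9. Although they were almost equal in width, the first was more enriched than 2.08% of peaks of similar width and the second than 26.4%. The ATAC-seq peaks left the start free. The nearest ended 888 bp before it, with others of 316 and 729 bp further upstream, and the next began 3438 bp after it and covered a start of the second start region. A pair of small H3K4me3 peaks of 527 and 345 bp, enrichments 5.35 and 3.29, lay upstream, between -9435 and -8298 bp. Pdgfra is also a gene of fibroblasts, on which these cells had been grown. Of 12 fibroblast genes taken as a list, 8 were marked (69.3% of all protein-coding genes, a like share), with summed widths from 271 bp at Dcn (enrichment 3.39) to 5669 bp at Twist1 (28.2), Col1a1 had 2869 bp (13.9), and Fap, Lum, Postn and S100a4 had no H3K4me3 peak. The part of feeder cells in the Pdgfra peaks was not tested.

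Dab2, an adaptor for endocytosis of surface receptors (chr15:6299788-6440712, plus strand), was one of the 18.4% of protein-coding genes with neither an H3K4me3 nor an ATAC-seq peak within 5 kb of the gene start. The nearest H3K4me3 peak was 86138 bp away and the nearest ATAC-seq peak 17090 bp. The second start region, 86810 bp downstream, a group of 5 annotated starts, was covered by the only H3K4me3 peak of the region, of 2421 bp with an enrichment of 20.8, and by an ATAC-seq peak of 662 bp. The CpG-rich sequence given above for Dab2 lies in both. Set beside the 5 marked members, this peak was narrower than their summed widths and its enrichment was near that of Sox17. The last 2 start regions had no peak within 1 kb. The other 13 ATAC-seq peaks of the gene and its surroundings, of 96 to 620 bp, touched no H3K4me3 peak.

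Hnf4a, a nuclear receptor of the later visceral endoderm (chr2:163506808-163572910, plus strand), was the only member without H3K4me3 within 5 kb of any annotated start. Its 3 start regions were 13614, 11233 and 14499 bp from the nearest H3K4me3 peak, and none had an ATAC-seq peak within 1 kb. The window of the gene start held narrow ATAC-seq peaks of 205 and 84 bp, neither of which touched H3K4me3. A single H3K4me3 peak of 468 bp, enrichment 8.80, lay in an intron 28309 bp downstream (chr2:163535117-163535584), together with an ATAC-seq peak of 478 bp. Another 3 ATAC-seq peaks of 371, 732 and 328 bp formed a group 8896 to 10922 bp downstream of the start, without H3K4me3. Of the 6 H3K4me3 peaks in the flanks, 3 were near the starts of Fitm2, R3hdml and Ttpal.

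**Figure D4:**
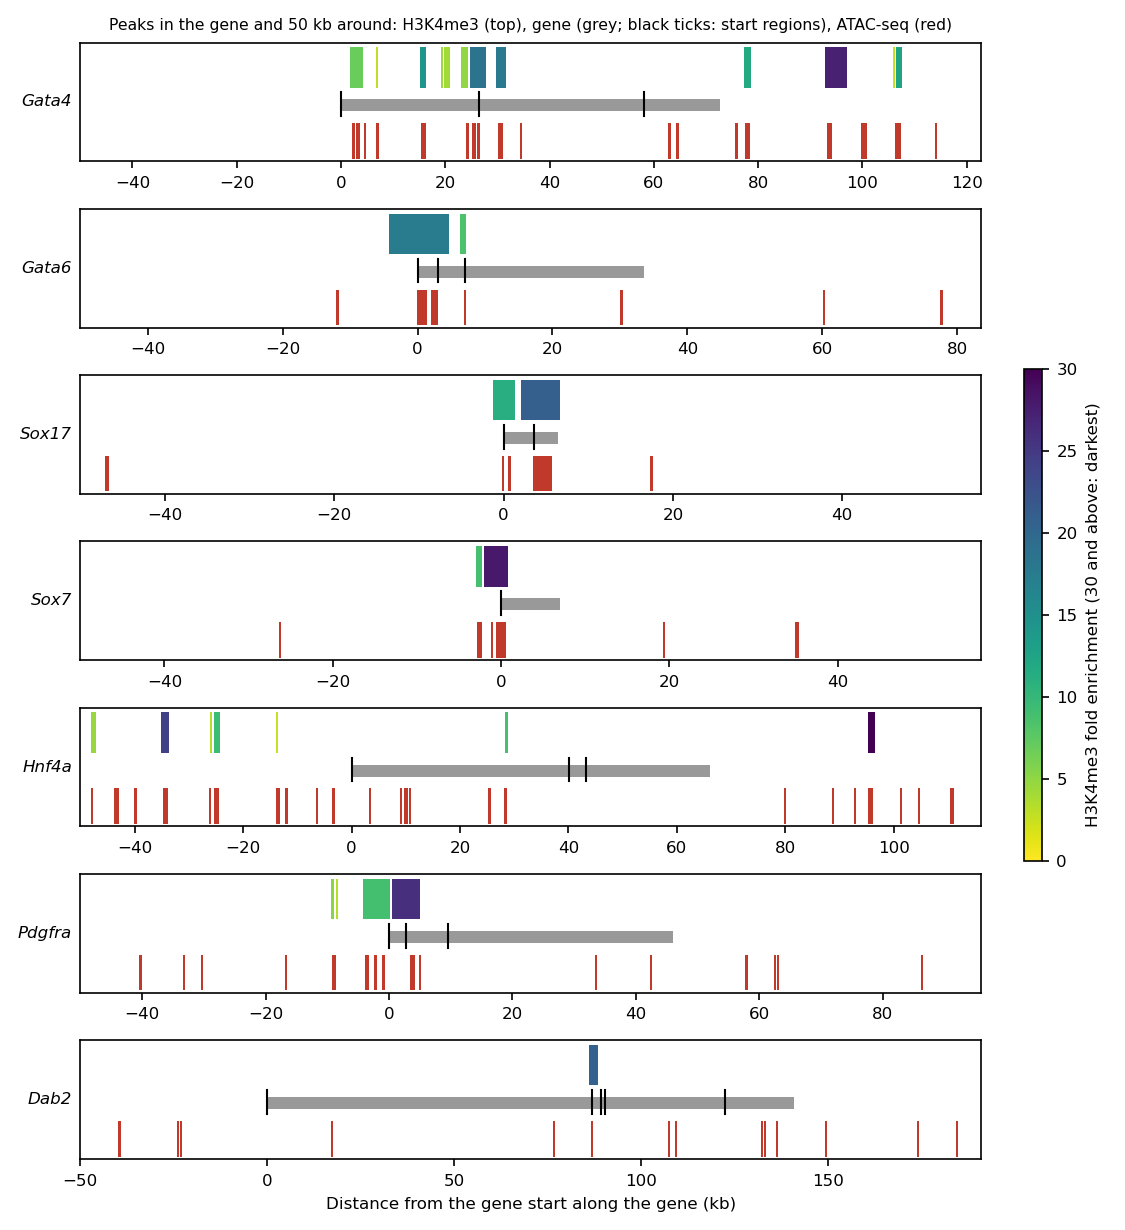
H3K4me3 peaks (top, coloured by fold enrichment), the gene (grey, with start regions as black ticks) and ATAC-seq peaks (red) are drawn for each member from 50 kb before to 50 kb after the gene, in kb from the gene start along the gene, with very narrow peaks widened so as to be visible. The 8 H3K4me3 peaks inside Gata4, the lone one at the second start region of Dab2 and the lone intronic one of Hnf4a stand apart from the compact marks of Gata6, Sox17, Sox7 and Pdgfra.

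Across the 7 regions, gene body and 50 kb on either side, 30 H3K4me3 and 95 ATAC-seq peaks were listed. Of the H3K4me3 peaks, 13 lay in a 5 kb window of a start of the member itself, and all 13 touched an ATAC-seq peak, as 87.1% of the whole H3K4me3 list did. Of the 17 others, 7 were near a start of another protein-coding gene. Among ATAC-seq peaks, 24 of the 28 in the members' own start windows touched H3K4me3, as against 13 of the 67 elsewhere and 21.1% of the whole list. Both whole lists include peaks far from any start. The same shares for peaks in the start windows of all protein-coding genes were not computed, so these values do not set the members apart from other promoters. The density of ATAC-seq peaks over gene and flanks was above the median of protein-coding genes (1.09 per 10 kb, exceeded by 50% of them) at Hnf4a (1.38), Gata4 (1.27) and Pdgfra (1.16), and below it at Gata6 (0.599), Dab2 (0.581), Sox7 (0.560) and Sox17 (0.470). Hnf4a, with no marked start, had the highest value of the members over gene and flanks together. Of its 23 ATAC-seq peaks, 6 touched the gene body and 7 lay in the flanks near coding starts of other genes. Letters of the motif AGATAA, searched on both strands in 300 bp around the middle of each ATAC-seq peak, were present in 5 of the 95 member peaks and in 10.9% of all 178722 peaks examined. None of the 28 peaks in the members' own start windows held it. This was not particular to that motif, since none of the 28 held the SOX or octamer motif given below and 1 held the HNF4 motif. The share among peaks in the start windows of all protein-coding genes was not computed. Only these exact letters were searched, so the absence of other forms of GATA sites was not tested.

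The genes with the most similar patterns were sought for the marked members. Likeness was the distance over 4 percentile ranks among marked protein-coding genes (summed width, number of H3K4me3 peaks, highest enrichment, number of ATAC-seq peaks). The 2 nearest genes were Bmp4 and Wnt3 for Gata6, Dio3 and Arid5b for Sox17, Mdfi and Zfp768 for Sox7, and Zfp503 and Ltbp4 for Pdgfra. Bmp4, for example, had 1 peak of 6525 bp with an enrichment of 17.1 and Zfp503 had 2 peaks with 10576 bp and 26.9.

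The same measures were taken over other genes of the pathway. Of 26 genes of later primitive, visceral and parietal endoderm, 21 were marked (69.3% of all protein-coding genes), with a median summed width of 3431 bp and a median highest enrichment of 24.4. Among the widest were the transcription factor Foxa2 (6523 bp) and the signalling protein Ihh (4960 bp), and 4 of the 21 were in the widest 10%. Afp, Cubn, Nid1, Srgn and Ttr, which encode secreted, basement membrane, granule and receptor proteins, had no H3K4me3 peak within 5 kb of the gene start, although a later start region of Srgn had one within 1 kb. In this list 15 of the 21 marked genes combined a width above and an enrichment below the median of marked genes, as did 17.3% of all marked genes, 5 of the 8 marked fibroblast genes and 3 of the 7 marked paralogs. The genes Col4a1 and Col4a2 share a single peak of 2996 bp between them.

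Of 12 FGF and ERK genes, 11 were marked (69.3% of all protein-coding genes), with a median width of 3417 bp and a median enrichment of 45.5. The enrichments of these 11, from 30.7 to 78.1, did not overlap those of the 5 marked regulators, from 6.90 to 28.1, and 10 of the 11 exceeded the median that 50% of marked genes exceed. The gene start of the receptor Fgfr2 belongs to a single transcript and lies 2857087 bp upstream of its other annotated starts, so that its window (7132 bp, enrichment 49.2) describes that remote start. Its second start region, where 4 starts lie together, had a peak of 3593 bp with an enrichment of 29.1. Without Fgfr2, an omission chosen after seeing the data, the other 10 marked genes had a median width of 3398 bp and a median enrichment of 44.6, again from 30.7 to 78.1. The widest of these were the receptor Fgfr1 (5844 bp) and the exchange factor Sos1 (3919 bp). Fgf4, the ligand made by epiblast cells, had no H3K4me3 peak within 5 kb of the gene start, but its second start region, 14019 bp downstream, was covered by a peak of 4652 bp with an enrichment of 30.6, so that like Gata4 and Dab2 it was marked at a later start. None of the 11 had a width above the median together with an enrichment below it.

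Among 10 epiblast genes, which are active in embryonic stem cells, 9 were marked at the gene start (69.3% of all protein-coding genes). Esrrb was not, but 3 later start regions of it had H3K4me3 within 1 kb, the first of them 60527 bp downstream under a peak of 2203 bp with an enrichment of 27.1. The median width of the 9 genes, 5764 bp, was below the 7152 bp of the regulators and their median enrichment of 26.4 was above the 21.0 of the regulators, and the values of both groups overlapped. In this list 7 of the 9 marked genes were in the widest 10%, led by Sox2 (8186 bp), Tdgf1 (6939 bp) and Pou5f1 (6508 bp). A width above the median together with an enrichment below it was found at 5 of the 9, and at 17.3% of all marked genes. Of 8 paralogs of the members, 7 were marked (69.3% of all protein-coding genes), with a median width of 2250 bp and a median enrichment of 13.4. Gata1 was not marked at any of its start regions. As with the marked members, none of the 7 exceeded the median enrichment that 50% of marked genes exceed. Gata2 (9502 bp in 3 peaks, enrichment 18.2) was wider than any member, and Gata3 (4207 bp in 3 peaks) and Sox18 (2404 bp in 2 peaks) followed. Hnf4g and Dab1 were marked at the gene start, with 1161 and 2148 bp, where Hnf4a and Dab2 were not, whereas Pdgfrb had 1233 bp against the 8899 bp of Pdgfra.

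**Figure D5:**
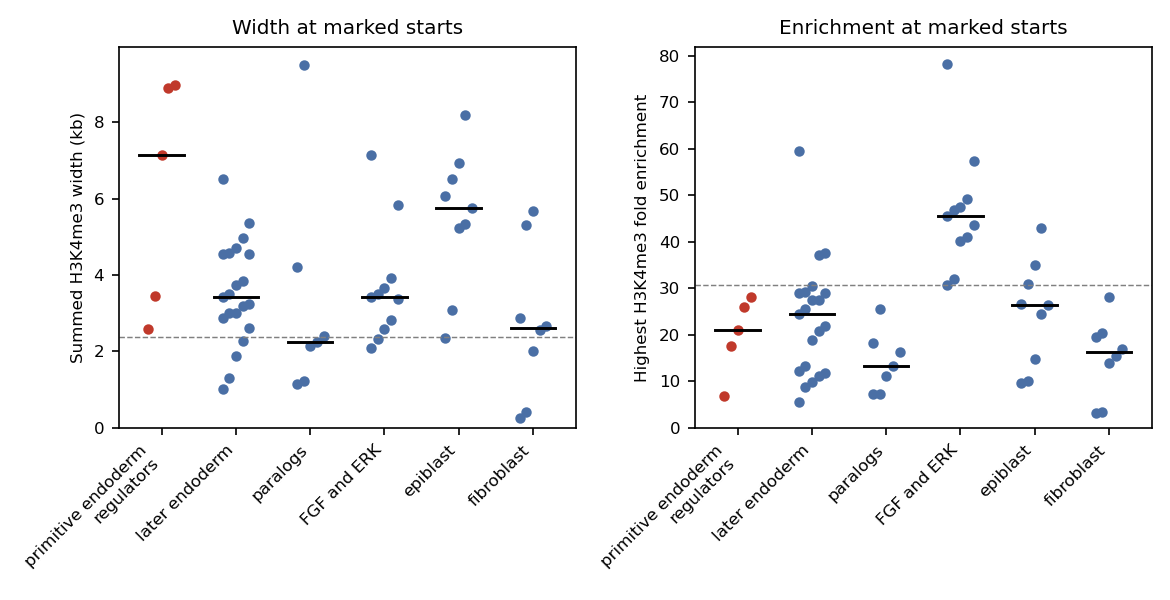
Points are the genes of each list that were marked at the gene start (for Fgfr2 the remote one), with the summed H3K4me3 width within 5 kb of the start (left, kb) and the highest fold enrichment (right). Black bars are list medians and dashed lines the medians of all marked protein-coding genes (2388 bp and 30.7), and the regulators (red, median 7152 bp and 21.0) overlap the epiblast genes (5764 bp and 26.4) on both.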

How the data were processed

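The H3K4me3 and ATAC-seq peak lists of F123 cells were used. For the H3K4me3 list the authors ran the ENCODE pipeline for histone marks at default parameters on 2 replicates, and the deposited columns hold peak positions, a fold enrichment (a ratio over the peak caller's background), −log10 p-values and q-values, and an integer score. The build is mm10 per the labels, and the aligner, the threshold and the use of the input are not given in the sources used here. For the ATAC-seq list the authors used bowtie 1.1.2, MACS2 2.1.1.20160309 and bedtools 2.27.1 on mm10. They shifted read ends by 4 bp to the Tn5 cut site and called peaks with a threshold on the p-value, not the q-value. Peaks of the pooled reads found in both replicates were retained. The deposited list holds positions only and so gives no measure of peak strength. Deposited PLAC-seq and input samples were not analysed here.

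Genes and transcript starts were taken from GENCODE M21. Peaks were counted with 1 bp of overlap, and width is the sum over whole peaks that touch the window. Percentages of genes are over 21938 protein-coding genes or the 15201 marked ones. Depth is unknown, and Wilson intervals cover counting error only. No test was run, since each gene has 1 value. The counting was tested on simulated data and checked against bedtools 2.31.1. Sequences were read with pysam 0.24.0, tables with pandas 2.3.3 and numpy 2.4.6 in Python 3.11.15, and plots drawn with matplotlib 3.10.9.

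The members and the comparison lists were chosen with earlier results of these data known. Named were all members, the genes of each list without an H3K4me3 peak (up to 5, in alphabetical order) and the 3 of largest width, and for each marked member the 2 most similar genes. Some genes that this rule names are not reported here. A few further list genes (Dcn, Col1a1, Hnf4g, Dab1, Pdgfrb, Col4a1 and Col4a2) were named after their values were seen. Alternatives were other windows and starts, thresholds, joining and width measures.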

Additional observations from a re-analysis of the deposited data

How the results depend on the processing

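No paired analysis was possible because each list stands for both replicates, and leaving out a replicate was not possible for the same reason. The number of members with 2 or more H3K4me3 peaks was the count that moved most with the processing. It was 3 as reported, 5 with windows around every annotated start (27.5% of all genes), 1 when peaks under 500 bp apart were joined (12.2%) and 0 when those under 1 kb apart were joined (10.2%). The median width of the marked members, 7152 bp as reported, was 8025.5 bp with every annotated start, 7863 bp with peaks under 1 kb apart joined, 5521 bp when only bases inside the window were counted and 4479 bp for the widest single peak, each time above the median of all marked genes. In the alternatives run the number of marked members was 5 or 6, of members with an ATAC-seq peak 5 to 7, of members in the widest 10% 3 or 4, and of members above the median ATAC-seq density 2 or 3. With windows of 5 kb around every annotated start Dab2 was marked as well. Its width of 2421 bp was then below the median of 2574 bp over marked genes, so not every marked member was wider than the median. The windows of 1 kb around every start were chosen after seeing the data. Without read counts, a start without a listed peak is a start below the authors' threshold at an unknown depth.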

Other observations

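Other motifs were searched in the same 300 bp windows on both strands. The SOX motif CATTGTT was present in 2 of the 95 ATAC-seq peaks of the member regions and in 4.21% of all 178722 peaks examined. The octamer ATGCAAAT was present in 1 of the 95 and in 3.55% of all. The HNF4 motif CAAAGTCCA was present in 1, the peak of 695 bp over the second start region of Gata4, and in 0.364% of all. These are matches of letters in the reference sequence and not measured sites.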
